A study of Mus musculus with 6 samples.

Results

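RNA of splenic B cells from Btk knockout mice was compared with RNA of splenic B cells from wild type CBA mice on Affymetrix MG_U74Av2 arrays, which read each transcript with 1 or more sets of short probes. The comparison took the 2 arrays labelled Btk KO against the 2 labelled wild type CBA, over all 12422 probe sets that are not array controls, out of 12488 on the array. Of these, 7453 were bright enough to be tested, and by the brightest probe set of each gene they stood for 5596 named genes. The other 4969 probe sets had a mean over the arrays below about 19.8 scaled intensity units and were left out as dim.

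All mice were adults, and whole splenic B cells were used. The knockout line, Btk KO/CBA, was derived from Btk KO/SW129 animals by 9 generations of crossing to CBA, so loss of Btk and any SW129 segments that remained cannot be told apart. A further group of 2 arrays held B cells of Xid mice, the CBA/N strain in which Btk carries the R28C substitution. It entered the estimate of the spread between arrays, and it served to test whether a change of the knockout differed from that of Xid. No treatment is given for any group, and the labels do not say whether an RNA was drawn from 1 mouse or from several. Replicate 2 of each group was prepared from new mice, so p-values of the fit without the replicate number measure the spread between 2 preparations a group. A second fit carries the replicate number as a block, which takes out of the spread what preparations of 1 replicate number share. Its p-values measure only the spread that is left.

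Btk is a cytoplasmic kinase of the Tec family. After the B cell receptor is engaged, Syk and the adaptor Blnk recruit Btk to the membrane, where it activates phospholipase C gamma, and calcium, NFAT and NF-kB follow. Mice without functional Btk are known for fewer mature follicular B cells, few B-1 cells, low serum IgM and IgG3 and weak responses to polysaccharide antigens. The spleen also holds red pulp macrophages, neutrophils, NK cells, T cells and red cell precursors, whose RNA can be present in a B cell preparation. In RNA from many cells, fewer cells of a type and less RNA per cell cannot be told apart.

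Replicate 1 of the knockout differed from the other arrays in its 3' to 5' control ratios, and the cause was not tested. Its Gapdh control gave a 3' to 5' ratio of 10.38, and the beta-actin control gave 3.61, against 0.76 to 1.61 and 1.10 to 1.66 on the other 5 arrays. The third control, for the transferrin receptor, went the other way and was lowest there, at 1.90 against 2.09 to 5.50. Per the file headers that array was hybridised alone, on another day than CBA and Xid of replicate 1, while the 3 arrays of replicate 2 were run together. Every array had a 2% trimmed mean of 100.06 and a median between 32.7 and 37.7. Array values or differences are therefore listed for replicate numbers 1 and 2 apart, and the values of replicate 1 go first wherever 2 values of a group are listed.

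Btk itself was the first gene examined. Its brighter probe set measured 874.1 and 749.8 in CBA and 276.1 and 173.6 in the knockout. The 2 groups did not overlap, and the knockout array of replicate 2, whose controls were in the range of the other arrays, had the lower level. Knockout minus CBA came to -1.86 ± 0.27 in log2 units (SE, limma, 2 arrays a group), with adjusted p = 0.052 in the fit without the replicate number and 0.0053 in the fit that carries the replicate number as a block. Here and below, ± gives the SE of the fit without the block, also beside a p of the blocked fit. Whether the probes fall inside the targeted stretch of Btk is not given in the sources used here, so the signal that remained, 27.7% of CBA, is no measure of functional Btk.

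Of the other Tec family kinases, Tec measured 410.4 and 281.2 in CBA and 342.8 and 266.5 in the knockout, a difference of -0.17 ± 0.24 that did not pass. Txk, the family member known from T cells and NK cells, measured 9.5 and 20.2 in CBA and 81.1 and 81.4 in the knockout. The Txk groups did not overlap, and its difference of 2.11 ± 0.38 was called with the block (limma adjusted p = 0.017, and 0.11 without the block). With CBA near the dim limit, the size of that change depends on the pseudocount of 6 added before the log. Without the knockout array of replicate 1 the blocked fit gave Txk an adjusted p of 0.092 (limma).

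Crossing to another strain can leave donor chromosome beside a targeted gene, so the genes around Btk on the X chromosome were listed. Of the 30 protein-coding genes on each side, 10 were on the array and 7 were bright enough. Their differences ran from -0.54 for Armcx2 to 0.41 for Timm8a1, the gene next to Btk, with a median of 0.03. With limma 0 of the 7 passed in either fit, and 0 had an unadjusted p under 0.05.

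Across all probe sets, the comparison asks which transcripts of the knockout preparation differed from CBA. In the fit without the block 13 of 7453 probe sets passed limma at adjusted p under 0.05 (0.174%), 12 higher (0.161%) and 1 lower (0.0134%). With the replicate block it called 166 (2.23%), 106 higher (1.42%) and 60 lower (0.805%), and the 13 were among them. The smaller count moved with the arrays used: it was 0 without CBA replicate 1 or 2 or without Xid replicate 1 or 2, 12 without knockout replicate 1 and 145 without knockout replicate 2. Against Xid, limma called 3 probe sets (0.0403%) without the block and 14 (0.188%) with it. In what follows, "rose" and "fell" mean a call by limma, in the blocked fit unless both fits are named. By gene, through the brightest probe set, 89 of 5596 rose (1.59%) and 27 fell (0.482%) in the blocked fit, and 9 rose (0.161%) and 1 fell (0.0179%) without the block. Both knockout arrays lay above both CBA arrays for 20.7% of these genes and below for 16.2%. The counts of each list below are to be read beside these shares.

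The blocked fit selects probe sets whose differences are alike in both replicate numbers, so what follows on sign and size only describes the 166. All had the same sign in both, 149 were past 2-fold in replicate 1, 152 in replicate 2 and 137 in both. Their median size on the log2 scale was 1.58 in replicate 1 and 1.48 in replicate 2. When the knockout array with the Gapdh ratio of 10.38 was left out, the blocked fit called 91 probe sets (1.22%), 60 higher (0.805%) and 31 lower (0.416%), and 74 of the 166 were among them. By gene it then called 53 higher (0.947%) and 10 lower (0.179%). Without the block and without that array limma called 12 (0.161%), of which 7 were among the 13. Mrc1, Spic, Vcam1, Camp, Tspan4 and Mcoln2, described below, were 6 of those 7.

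Over all tested probe sets, calls included, the lists past 2-fold overlapped in part. Past 2-fold higher were 392 probe sets in replicate 1 and 304 in replicate 2, with 139 in both (1.87% of all tested), which is 35.5% of the first list and 45.7% of the second. Past 2-fold lower were 446 in replicate 1 and 151 in replicate 2, with 66 in both (0.886%), which is 14.8% and 43.7%. Of the 205 probe sets past 2-fold in both, 137 were blocked calls, which left 50 higher and 18 lower outside the calls. Opposite 2-fold changes were seen for 17. The split of the 205 shared probe sets into higher and lower depended on the scaling: it was 139 and 66 as deposited, 117 and 79 after quantile normalization, and 108 and 103 with each array centred on its median, which shifted the median of all genes from 0.01 to -0.10. Among the 2484 brightest probe sets, 80.5% of those past 2-fold lower in replicate 2 were so in replicate 1 too, against 23.1% among the 2485 dimmest. The SD of the difference over all probe sets was 0.67 in replicate 1 and 0.51 in replicate 2.

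**Figure D1:**
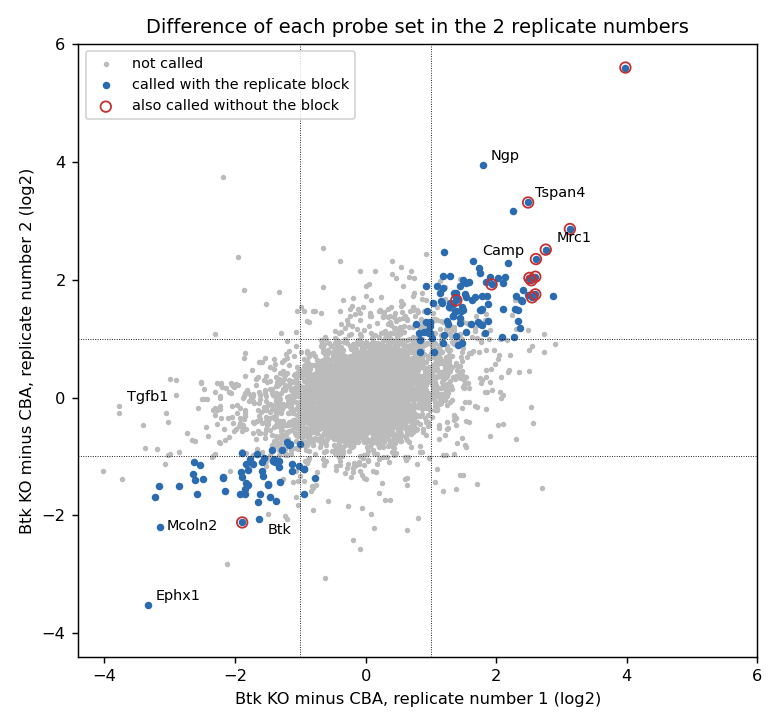
Each point is 1 of 7453 probe sets, with the log2 difference Btk KO minus CBA of replicate number 1 on the x axis and of replicate number 2 on the y axis; dotted lines mark 2-fold. The 166 probe sets called with the replicate block (blue) lie in the upper right and lower left, the 13 also called without it are circled in red, and the grey cloud is wider along the x axis, where probe sets such as Tgfb1 moved in replicate 1 alone.

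B cell identity genes were lower on both knockout arrays, by less than 2-fold each. Each of the 7 B cell identity genes described here measured lower on both knockout arrays than on both CBA arrays. Over all genes, 16.2% had both knockout arrays below both CBA arrays. Cd79a, a signalling chain of the B cell receptor, measured 5287.4 and 6004.4 in CBA and 3066.3 and 3982.2 in the knockout (-0.69 ± 0.26). Pax5, the transcription factor of B cell commitment, measured 921.4 and 816.4 against 667.4 and 449.4 (-0.66 ± 0.23), and Ms4a1, which encodes CD20, differed least (-0.27 ± 0.26). With limma 0 of the 7 passed in either fit (3 at an unadjusted p under 0.05 without the block, 5 with it). The median was -0.64, with -0.46 and -0.58 within the replicate numbers, and the summed intensity of the list was 22617 and 22733 in CBA and 16523 and 15581 in the knockout.

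Of 24 measured B cell receptor signalling genes, 1 fell and none rose. It was Nfatc1, the calcium-regulated transcription factor downstream of Btk, at 322.7 and 578.5 in CBA and 80.8 and 183.5 in the knockout. Both knockout arrays were below both CBA arrays, and the difference was -1.92 in replicate 1 and -1.63 in replicate 2 (-1.77 pooled, limma adjusted p = 0.0064 with the block and 0.24 without it). It stayed called in the blocked fit without knockout replicate 1 (limma adjusted p = 0.015). The list's median was -0.23, with -0.26 and -0.20 within the replicate numbers. Of the 24, 8 had both knockout arrays below both CBA arrays, where 16.2% of all genes did.

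The inhibitory co-receptors and their phosphatases had a median of -0.44 over 11 genes, at -0.72 in replicate 1 and -0.25 in replicate 2. With limma 0 passed in either fit (5 at an unadjusted p under 0.05 in each). Cd72, a co-receptor that restrains B cell receptor signals, measured 1093.9 and 818.6 in CBA and 439.2 and 521.4 in the knockout (-0.97 ± 0.22, blocked limma adjusted p = 0.051). Cd22, which recruits the phosphatase Ptpn6, measured 990.5 and 912.7 against 589.3 and 607.0 (-0.66 ± 0.18, limma 0.083), and Ptpn6 itself 1177.8 and 1182.4 against 608.7 and 830.6 (-0.73 ± 0.22, limma 0.089). In each of these 3 the groups did not overlap, and the replicate 1 difference was the larger.

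Follicular B cell genes were among the lists with lower medians. Of 10 measured, 1 fell, 6 had both knockout arrays below both CBA arrays, and the median was -0.34, with -0.36 and -0.55 within the replicate numbers. Over all genes 0.482% fell and 16.2% had both knockout arrays below both CBA arrays. Cxcr5, the chemokine receptor that guides B cells into follicles, measured 419.4 and 399.2 in CBA and 204.8 and 228.7 in the knockout, and fell by 0.90 ± 0.20 (limma adjusted p = 0.044 with the block and 0.18 without it). Ccr6, another chemokine receptor, measured 1235.6 and 1096.5 against 523.8 and 674.9, and Fcer2a, which encodes the low affinity IgE receptor CD23, 1406.8 and 2048.0 against 875.8 and 1211.6. Neither passed (blocked limma adjusted p = 0.088 and 0.091). Without knockout replicate 1 the blocked adjusted p of Cxcr5 was 0.13 (limma). Marginal zone genes had a median of -0.21 over 10 genes (-0.40 and -0.07 within the replicate numbers), with 0 called by limma in either fit and 2 at an unadjusted p under 0.05 with the block. Only 2 of 10 B-1 cell genes were bright enough, which is too few to describe that subset.

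Of 15 measured survival and death genes 2 fell, 1 from each side of that balance. Bcl2, which blocks mitochondrial cell death, measured 434.8 and 399.0 in CBA and 195.5 and 164.6 in the knockout. It fell by 1.19 ± 0.24 (limma adjusted p = 0.019 with the block and 0.15 without it), with -1.13 in replicate 1 and -1.25 in replicate 2, and its other probe sets differed by -1.08, which also passed, and by -0.84. Bid, which promotes cell death, measured 214.3 and 207.2 against 122.0 and 77.0 and also fell (-1.07 ± 0.28, limma adjusted p = 0.047 with the block). Bcl2l1, which encodes the survival protein Bcl-xL, measured 80.5 and 94.8 against 233.7 and 124.9, mostly in replicate 1, and did not pass. The median of the list was -0.14. Without knockout replicate 1 neither Bcl2 (blocked limma adjusted p = 0.061) nor Bid (0.066) was called.

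Among 18 B lineage transcription factors 1 rose and none fell. Id2, an inhibitor of the E proteins that drive B cell genes and a factor of NK and myeloid cells, measured 110.0 and 177.2 in CBA and 409.2 and 708.1 in the knockout. Its difference was 1.84 in replicate 1 and 1.96 in replicate 2 (1.90 ± 0.41, limma adjusted p = 0.0053 with the block, 0.17 without it and 0.012 with the block and without knockout replicate 1). Mef2c, a factor of B cell receptor responses, had 4 probe sets at -0.73 to -1.41, of which the one at -1.41 passed (limma adjusted p = 0.042 with the block, and 0.15 without knockout replicate 1) and the brightest, at -1.13, did not (0.070). The median of the list was -0.21.

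MHC class II and antigen presentation genes had a median of -0.33 over 13 genes and -0.37 within each replicate number, and 10 were lower in both. Over all genes 26.8% were lower in both replicate numbers. With limma 0 passed in either fit (1 at an unadjusted p under 0.05 without the block and 6 with it). H2-Ab1, a chain of the class II molecule I-A, measured 1486.8 and 1676.6 in CBA and 952.9 and 997.2 in the knockout (-0.69 ± 0.19, blocked limma adjusted p = 0.075). Ciita, the regulator of class II genes, was lower mainly in replicate 1, at 303.2 and 443.3 against 100.7 and 335.3.

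Genes of immature and transitional B cells leaned the other way. Of 15 measured, 9 had both knockout arrays above both CBA arrays, where 20.7% of all genes did, and 1 rose. It was Il7r, the interleukin 7 receptor chain of B cell precursors and T cells, at 24.8 and 38.8 in CBA and 62.7 and 104.6 in the knockout (1.23 ± 0.34, limma adjusted p = 0.050 with the block, just under the threshold, 0.28 without it, and 0.13 with the block and without knockout replicate 1). Ly6d, a surface protein of early and transitional B cells, measured 931.5 and 948.7 against 2059.7 and 1512.2 (0.90 ± 0.24, limma adjusted p = 0.052 with the block). Vpreb1, of the surrogate light chain, measured 25.2 and 27.4 against 58.8 and 57.1 (0.99 ± 0.28) and did not pass. The median was 0.33, with 0.30 and 0.39 within the replicate numbers.

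Of the 27 genes that fell, 12 were in the immunoglobulin lists. Of 19 measured variable segments 11 fell in the blocked fit and none rose, and 18 were lower in both replicate numbers. Over all genes 0.482% fell and 26.8% were lower in both replicate numbers. Without the block limma called 0 of the 19 variable segments (10 at an unadjusted p under 0.05). Most of the 11 were not called when knockout replicate 1 was left out of the blocked fit, which leaves 1 knockout array. Igkv8-30 measured 767.0 and 1074.6 in CBA and 168.0 and 352.8 in the knockout (-1.87 ± 0.35, limma adjusted p = 0.013 with the block), and Igkv2-112 measured 105.6 and 183.4 against 29.5 and 49.5 (-1.71 ± 0.34, 0.019, and 0.067 without knockout replicate 1). Within a replicate number the knockout was the lower in both, while CBA and knockout alike read higher in replicate 2. The median was -1.18, with -1.41 and -1.04 within the replicate numbers. In the fit without the block and without knockout replicate 1 it was -0.50. That fit sets knockout replicate 2 against the mean of both CBA arrays, of which replicate 2 read higher. Segments of a family are near-identical in sequence, so probe sets of different segments can read the same transcripts and are no independent counts.

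Of the constant regions, Ighg3, the heavy chain of IgG3, measured 534.2 and 1723.0 in CBA and 52.1 and 533.1 in the knockout by its brightest probe set. It fell by 2.45 ± 1.02 (limma adjusted p = 0.024 with the block and 0.55 without it), but its 7 probe sets split. They differed by -2.63, -2.45, -2.09 and -1.86, and by -0.31, -0.16 and 0.20. Only those at -2.45 and -1.86 passed with the block, so whether constant region RNA of IgG3 fell cannot be told. Ighm, the heavy chain of IgM, measured 10729.8 and 10623.2 against 10580.2 and 7235.7 by its brightest probe set (-0.29 ± 0.34) and did not pass. Another Ighm probe set was higher by 1.24 (0.40 in replicate 1 and 2.09 in replicate 2), and others differed by -1.05 to -0.02, without passing. A further 3 Ighm probe sets, dimmer than the brightest, fell by 1.25, 1.93 and 1.84. Without knockout replicate 1 the blocked fit kept the last 2 of these (limma adjusted p = 0.026 and 0.037) and lost the first (0.19). Igha, the heavy chain of IgA, rose on its brightest probe set, from 998.2 and 380.3 to 3138.5 and 1927.9 (1.99 ± 0.51, limma adjusted p = 0.0063 with the block and 0.25 without it), and dimmer Igha probe sets gave 0.90 and -1.89. Jchain, which joins IgM and IgA into polymers, measured 883.9 and 1165.6 against 503.4 and 400.9 (-1.17 ± 0.26, blocked limma adjusted p = 0.052). In the plasma cell and secretory list 1 of 25 rose, the endoplasmic reticulum chaperone Dnajb9 (0.96 ± 0.20, limma adjusted p = 0.040 with the block, and 0.055 with the block and without knockout replicate 1). Its difference was 0.82 in replicate 1 and 1.10 in replicate 2, and the median of the list was -0.14. A dimmer Dnajb9 probe set differed by 0.56 and did not pass.

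Macrophage and monocyte genes formed the largest group of calls. Of 33 listed, 28 were on the array, 21 were bright enough and 12 of these rose in the blocked fit, against 1.59% of all genes, and 3 rose without the block. None fell. The median was 1.23, with 1.03 in replicate 1 and 1.48 in replicate 2, and 20 of 21 were higher in both replicate numbers, where 31.5% of all genes were. Both knockout arrays were above both CBA arrays for 17, against 20.7% of all genes. In the fit without the block and without knockout replicate 1 the median was 1.68. The exception to the shared direction was C1qa, at -0.20 in replicate 1 and 1.69 in replicate 2. The summed intensity of the list was 3127 and 4727 in CBA and 9069 and 13195 in the knockout.

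The 3 macrophage genes called without the block were Mrc1, Spic and Vcam1. Mrc1, the mannose receptor of tissue macrophages, measured 37.4 and 38.4 in CBA and 287.2 and 246.5 in the knockout (2.63 ± 0.25, limma adjusted p = 0.025, and 0.0053 with the block). Spic, the transcription factor needed for red pulp macrophages, measured 54.5 and 75.7 against 360.0 and 332.2 (2.32 ± 0.23, limma adjusted p = 0.025). Vcam1, an adhesion molecule of those macrophages and of stroma, measured 304.7 and 369.9 against 1765.9 and 1532.0 (2.27 ± 0.23, limma adjusted p = 0.025). In all 3 the groups were far apart and the knockout arrays lay close to each other, and all 3 stayed called without knockout replicate 1 (limma adjusted p = 0.049 each).

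The complement genes C1qb and C1qc, whose products start the classical pathway and are made by macrophages, rose with the block. C1qb measured 154.3 and 256.1 in CBA and 650.7 and 1055.1 in the knockout, a difference of 2.03 in replicate 1 and 2.02 in replicate 2 (limma adjusted p = 0.0048 with the block and 0.12 without it). A dimmer C1qb probe set differed by 0.31 and did not pass. C1qc measured 291.7 and 656.1 against 1553.4 and 2040.0 (2.01 ± 0.38, 0.0068 with the block). Csf1r, the receptor on which macrophages depend for survival, measured 149.0 and 319.7 against 750.4 and 917.2 (1.89 ± 0.37, limma adjusted p = 0.0076 with the block). Here CBA and knockout both read higher in replicate 2, and the groups did not overlap. A dimmer Csf1r probe set differed by 0.54 and did not pass. Sirpa, an inhibitory receptor of phagocytes, rose on its brightest probe set (1.77 in replicate 1 and 1.48 in replicate 2), and its dimmer ones differed by -0.63 and 0.55.

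Promoters of 3 genes that rose and 1 that fell are shown so that letters shared by genes that moved together can be looked for. The sequences are from RefSeq on GRCm38.p6 and span the 250 bases before the annotated start, 5' to 3' on the gene's strand. Mrc1 is at chr2:14229164-14229413 (plus strand), C1qb at chr4:136886201-136886450 (minus strand), Spic at chr10:88683024-88683273 (minus strand) and Mcoln2, which fell, at chr3:146149924-146150173 (plus strand). Capitals mark the letters GAGGAA, the core of a PU box, or TTCCTC, the same letters on the other strand.
Mrc1: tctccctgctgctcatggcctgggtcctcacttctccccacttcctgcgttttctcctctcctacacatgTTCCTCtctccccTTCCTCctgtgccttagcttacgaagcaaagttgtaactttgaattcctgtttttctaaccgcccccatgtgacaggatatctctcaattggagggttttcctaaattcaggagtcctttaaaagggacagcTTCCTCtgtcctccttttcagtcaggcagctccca
C1qb: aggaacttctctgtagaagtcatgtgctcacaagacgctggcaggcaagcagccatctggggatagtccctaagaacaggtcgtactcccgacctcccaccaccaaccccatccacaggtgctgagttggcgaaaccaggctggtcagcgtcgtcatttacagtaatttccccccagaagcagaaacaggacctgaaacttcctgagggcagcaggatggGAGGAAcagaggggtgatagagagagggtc
Spic: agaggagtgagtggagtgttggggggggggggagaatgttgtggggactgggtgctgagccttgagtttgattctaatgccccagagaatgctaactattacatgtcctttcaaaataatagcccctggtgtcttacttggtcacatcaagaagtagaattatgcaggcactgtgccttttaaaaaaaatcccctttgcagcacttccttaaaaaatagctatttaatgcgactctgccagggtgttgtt
Mcoln2: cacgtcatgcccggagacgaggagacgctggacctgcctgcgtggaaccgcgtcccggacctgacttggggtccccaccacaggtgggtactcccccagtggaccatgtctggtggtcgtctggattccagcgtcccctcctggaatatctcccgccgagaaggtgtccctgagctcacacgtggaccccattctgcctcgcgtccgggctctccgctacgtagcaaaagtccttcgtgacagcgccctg
The Mrc1 promoter holds 3 matches, that of C1qb 1, and those of Spic and Mcoln2 hold 0. The promoter of Slpi and both promoters of Tspan4, genes that also rose, were searched as well and hold 0. Such letters are common: 23.3% of 32851 promoters of this length in the table hold at least 1, and 23.0% of those of genes tested here. Among promoters of genes that rose in the blocked fit the share was 29.3% (24 of 82, for 70 genes), and among those of genes that fell it was 55.0% (11 of 20, for 13 genes). Several promoters belong to 1 gene and overlap, so these shares are descriptions. The letters GGGATTTCC, a kappa B site, were in 0.283% of all promoters and in 0 of the 82 and 0 of the 20, and TGAGTCA, which AP-1 factors bind, in 4.46% of all, 4 of the 82 and 1 of the 20. Both strands were searched for each motif.

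Genes of iron and heme handling, a task of red pulp macrophages, had 3 of 11 measured members rise and none fall, where 1.59% of all genes rose. Hmox1, which breaks down heme, measured 750.1 and 978.4 in CBA and 2751.8 and 2939.7 in the knockout (1.72 ± 0.25, limma adjusted p = 0.0063 with the block and 0.052 without it). Hfe, a regulator of iron uptake, measured 30 and 38 against 115.6 and 185.3 (1.94 ± 0.28, 0.0088 with the block), and Slc11a1, a metal transporter of phagosomes, 61.6 and 86.6 against 165.3 and 234.9 (1.36 ± 0.35, 0.018). In all 3 both knockout arrays were above both CBA arrays. The median was 0.53, with 0.56 and 0.67 within the replicate numbers. Hmox1 and Hfe stayed called in the blocked fit without knockout replicate 1 (limma adjusted p = 0.025 and 0.015), and Slc11a1 did not (0.072).

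Of 13 measured complement genes 3 rose, C1qb, C1qc and Cfp, the properdin that stabilises the alternative pathway, which measured 299.2 and 380.2 in CBA and 845.9 and 730.0 in the knockout (1.21 ± 0.20, limma adjusted p = 0.020 with the block, and 0.079 with the block and without knockout replicate 1). The median of the list was 0.22, at -0.17 in replicate 1 and 0.49 in replicate 2. Fcna, which encodes ficolin A, a lectin of the complement lectin pathway, rose as well, from 107.6 and 143.3 to 405.1 and 488.3 (1.79 ± 0.30, limma adjusted p = 0.0064 with the block).

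Lysosomal genes were mixed. Of 29 measured, 3 rose and 1 fell, 20 had both knockout arrays above both CBA arrays, and the median was 0.43, with 0.31 and 0.52 within the replicate numbers. Over all genes 1.59% rose, 0.482% fell and 20.7% had both knockout arrays above both CBA arrays. The proteases Ctsd (338.8 and 539.8 in CBA, 1179.6 and 1544.1 in the knockout) and Ctsb (760.1 and 1088.7, 2005.5 and 2245.1) rose by 1.64 ± 0.29 and 1.22 ± 0.29 (limma adjusted p = 0.0063 and 0.019 with the block), and Asah1, an acid ceramidase, rose by 1.05 ± 0.24 (0.048), with 0.96 and 1.13 within the replicate numbers. In the blocked fit without knockout replicate 1, Ctsd stayed called (limma adjusted p = 0.016) and Ctsb (0.11) and Asah1 (0.17) did not. Mcoln2, a cation channel of endosomes and lysosomes found in lymphocytes, went the other way. It measured 227.9 and 224.3 in CBA and 57.2 and 47.0 in the knockout, the only probe set called lower without the block (-2.0 ± 0.22, limma adjusted p = 0.028, and 0.0064 with the block). The CBA arrays were within a few units of each other, and the difference was -1.89 in replicate 1 and -2.12 in replicate 2.

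Among tetraspanins and adhesion molecules 3 of 22 rose, 2 of them without the block. Over all genes 1.59% rose with the block and 0.161% without it. Tspan4, a tetraspanin of migrating cells, measured 18.2 and 10.6 in CBA and 130.2 and 158.2 in the knockout (2.90 ± 0.28, limma adjusted p = 0.025), with CBA under the dim limit. Cadm1, an adhesion molecule, measured 210.7 and 348.7 against 1259.5 and 1148.8 (2.12 ± 0.26, limma adjusted p = 0.041). Itgb5, an integrin chain that pairs with the alpha v chain, rose with the block (2.87 in replicate 1 and 1.72 in replicate 2), while its other probe set, of similar brightness in CBA, differed by -0.38.

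**Figure D2:**
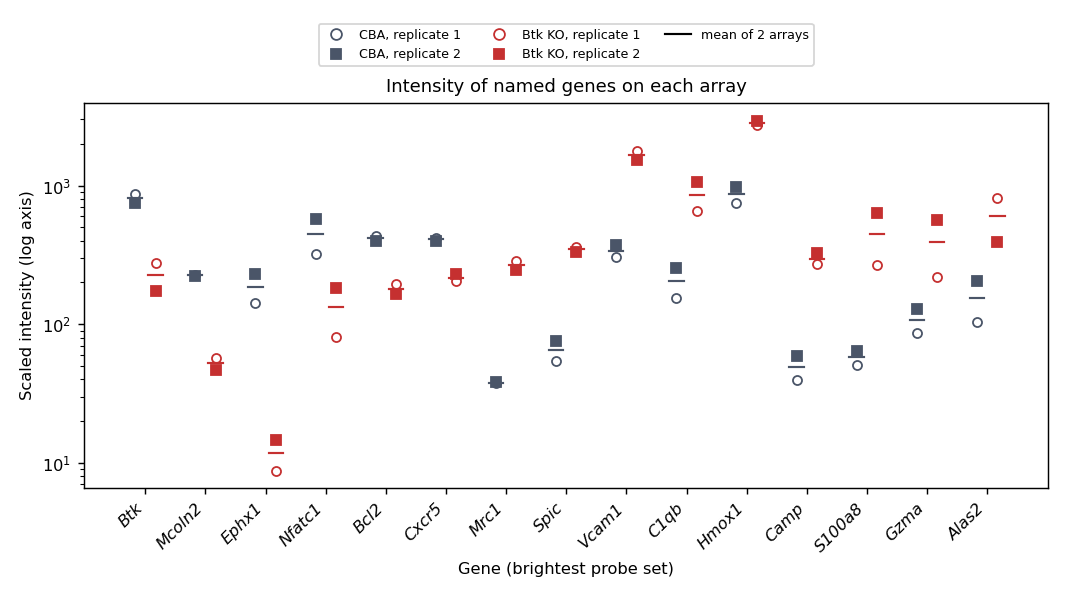
Scaled intensity on a log axis for 15 genes, by the brightest probe set of each, on the 2 CBA arrays (grey) and the 2 Btk KO arrays (red); open circles are replicate 1, filled squares replicate 2, and bars the mean of 2 arrays. Btk, Mcoln2, Ephx1, Nfatc1, Bcl2 and Cxcr5 are lower and the others higher on both knockout arrays, and Alas2 is higher in replicate 1 than in replicate 2 of the knockout.

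Of 23 listed neutrophil genes 13 were bright enough to be tested, and 4 of these rose with the block, 2 of them without it. Of all genes, 1.59% rose with the block and 0.161% without it. Camp, a precursor of an antimicrobial peptide, measured 39.4 and 58.8 in CBA and 271.1 and 324.2 in the knockout (2.48 ± 0.27, limma adjusted p = 0.028). S100a9 and S100a8, the 2 chains of calprotectin, measured 16.8 and 29.5 against 194.0 and 252.6 (3.0 ± 0.37, limma adjusted p = 0.041) and 50.9 and 64.5 against 267.1 and 629.3 (2.72 ± 0.39, 0.052 without the block and 0.012 with it). Ngp, a granule protein of immature neutrophils, was much higher in replicate 2, at 7.4 and 11.2 against 40.8 and 258.3 (limma adjusted p = 0.044 with the block). Its CBA and Xid levels were all under the dim limit, so it was tested only because the knockout was bright and had to differ. With CBA at the floor its fold is set in part by the pseudocount. Leaving out the 3 members that were bright enough only through the knockout, 3 of 10 rose.

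For Camp, S100a8 and S100a9 the knockout arrays were above both CBA arrays, and all 3 stayed called in the blocked fit without knockout replicate 1. The granule genes Mpo (0.46) and Elane (0.27) did not pass, and Ltf, Mmp8, Mmp9 and Ly6g were too dim to be tested. The median over the 13 genes was 0.46, with 0.68 and 0.77 within the replicate numbers. The list's summed intensity was 756 and 862 in CBA and 1407 and 2316 in the knockout.

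NK and cytotoxic cell genes rose in 5 of 17 with the block, where 1.59% of all genes did. Both knockout arrays were above both CBA arrays for 15, against 20.7% of all genes. With limma 0 passed without the block (10 at an unadjusted p under 0.05). Ccl5, a chemokine of cytotoxic cells, differed by 1.44 in replicate 1 and 1.35 in replicate 2 (limma adjusted p = 0.0091 with the block). Gzma, a granzyme, measured 86.0 and 128.9 in CBA and 218.3 and 560.2 in the knockout (1.68 ± 0.49, limma adjusted p = 0.012 with the block), and Klrd1, a chain of the CD94 receptor, 65.5 and 137.3 against 189.1 and 339.0 (1.36 ± 0.45, 0.012). Klra3, of the Ly49 receptors, and Eomes, a transcription factor of NK cells, also rose. Klra3 differed by 1.39 in replicate 1 and 1.77 in replicate 2, and Eomes by 1.14 and 1.77. Without knockout replicate 1 neither was called (blocked limma adjusted p = 0.055 and 0.089). The median was 1.14, with 0.93 and 1.30 within the replicate numbers, and the blocked fit without knockout replicate 1 called 4.

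T cell genes showed less. Of 25 listed genes 9 were bright enough and 1 rose, Zap70, a kinase of T cell and NK cell receptors, at 48.0 and 94.8 in CBA and 133.6 and 273.4 in the knockout (1.42 ± 0.48, limma adjusted p = 0.012 with the block). A dimmer Zap70 probe set differed by 0.27 and did not pass. Cd3e, of the T cell receptor complex, measured 9.7 and 56.2 in CBA and 17 and 62.6 in the knockout, so it was set by the replicate number more than by the group. Cd3d, Cd3g and Cd8a were too dim to be tested. The list's summed intensity was 819 and 1086 in CBA and 1019 and 1168 in the knockout. Lcp2, an adaptor of T cell, myeloid and platelet receptors, rose from 24.2 and 38 to 124.2 and 162.7 (2.02 ± 0.29, limma adjusted p = 0.0064 with the block).

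Red cell genes had a higher median in both replicate numbers, and the larger one in replicate 1. Of 21 measured, 1 rose, Bpgm, which makes bisphosphoglycerate in red cells, at 89.5 and 102.7 in CBA and 486.3 and 240.6 in the knockout (1.77 ± 0.33, limma adjusted p = 0.032 with the block). Alas2, of heme synthesis in red cell precursors, measured 103.1 and 204.7 against 810.4 and 388.7, a difference of 2.90 in replicate 1 and 0.91 in replicate 2 (limma adjusted p = 0.062 with the block). Hba-a1, an alpha globin, measured 3777.1 and 5195.0 against 13054.9 and 6371.9, at 1.79 and 0.29. The list's median was 1.55 in replicate 1 and 0.72 in replicate 2, with 15 members past 2-fold in the first and 5 in the second. Its summed intensity was 6999 and 9226 in CBA and 25481 and 12920 in the knockout, so the knockout array with the Gapdh ratio of 10.38 read highest. Without it the blocked fit called 0 members (1 with it). The part that RNA quality or the separate hybridisation day has in this was not tested.

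For dendritic cell markers the median was 0.23 (7 genes), and for stroma and endothelium markers 0.19 (9 genes), with 0 called by limma in either fit (3 in each list at an unadjusted p under 0.05 with the block). Of 10 platelet genes, Gp9 alone was bright enough, at 33.5 and 14.1 in CBA and 26.1 and 17.4 in the knockout. Set side by side, the summed marker levels of macrophages, neutrophils, NK cells and red cells were higher on each knockout array than on either CBA array, and those of B cell identity were lower. The part that other cell types have in the changes of B cell genes was not tested.

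**Figure D3:**
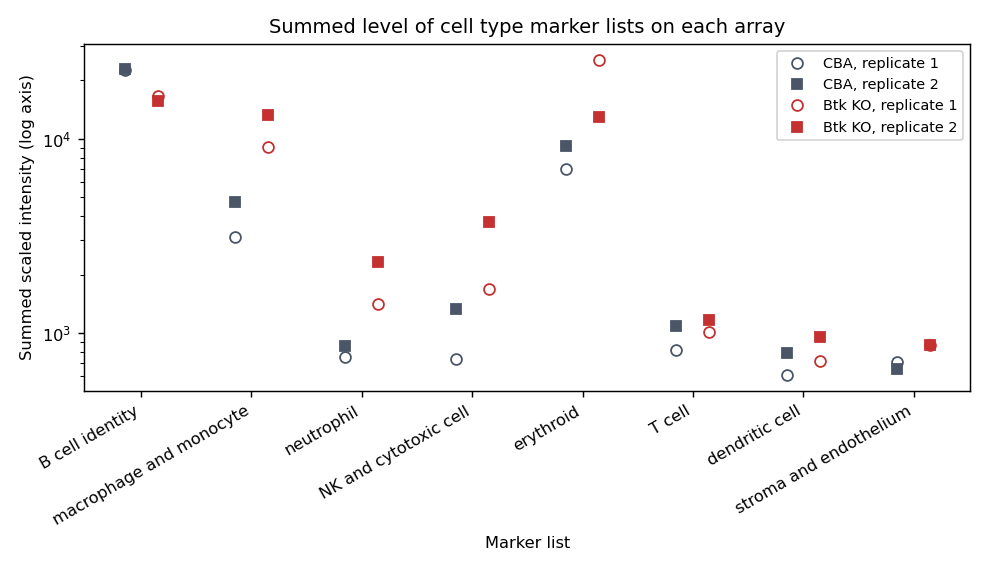
Summed scaled intensity (log axis) of the measured genes of 8 marker lists on the 2 CBA arrays (grey) and the 2 Btk KO arrays (red); open circles are replicate 1 and filled squares replicate 2. B cell identity markers lie at 15581 to 16523 in the knockout against 22617 to 22733 in CBA, macrophage markers at 9069 to 13195 against 3127 to 4727, and red cell markers are highest on knockout replicate 1 at 25481.

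Several genes outside these groups were called as well. Ephx1, which hydrolyses epoxides of foreign compounds, had the largest drop by gene among the calls, from 142.4 and 230.2 to 8.8 and 14.6. Both knockout values are under the dim limit, and the difference was -3.33 in replicate 1 and -3.52 in replicate 2 (limma adjusted p = 0.0053 with the block, 0.052 without it and 0.0081 with the block and without knockout replicate 1). Abcc3, a transporter of organic anions, rose in both fits, from 53.4 and 47.8 to 221.0 and 197.3 (1.93 ± 0.21, limma adjusted p = 0.028), by nearly the same amount in each replicate number (1.93 and 1.92).

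Slpi, a secreted inhibitor of neutrophil proteases, rose on 2 of its 3 probe sets. The brightest measured 215.1 and 180.7 in CBA and 574.3 and 579.0 in the knockout (1.52 ± 0.19, limma adjusted p = 0.041), the next rose by 2.09 with the block, and the dimmest differed by 0.22. Igf1, a growth factor, was called on a dim probe set (17.8 and 28 against 138.1 and 108.3), while its brighter one differed by 0.14. Strbp, an RNA-binding protein, fell by 1.29 ± 0.29 with the block (limma adjusted p = 0.023, and 0.18 without it), with -1.55 and -1.03 within the replicate numbers. Ppie, a peptidyl-prolyl isomerase, fell by 1.57 ± 0.34 (0.040 with the block and 0.17 without it), from 51.8 and 44.4 to 16.2 and 8.9. Without knockout replicate 1 the blocked fit called none of Strbp (limma adjusted p = 0.081), Ppie (0.094) and Igf1 (0.055).

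Of the 166 probe sets called with the block, 139 carry 1 gene symbol (125 genes), 10 carry several and 17 none. The largest change of all was in a probe set without a symbol, at 101.9 and 84.3 in CBA and 1692.0 and 4380.4 in the knockout. Both replicate numbers showed it (3.98 and 5.6), and the difference of 4.79 ± 0.43 passed in each fit (limma adjusted p = 0.025 without the block and 0.0048 with it). Of the 125 genes, 33 had further tested probe sets, and for 6 of these (Igha, Ighg3, Ighm, Igkv9-120, Itgb5 and Sirpa) a further probe set had the opposite sign.

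Response and housekeeping lists had few calls. In the interferon list 1 of 21 rose, the antiviral gene Rsad2, at 22.8 and 20.9 in CBA and 139.5 and 60.1 in the knockout (1.82 ± 0.39, limma adjusted p = 0.040 with the block, and 0.24 with the block and without knockout replicate 1). Immediate early and stress genes had a median of 0.63 in replicate 1 and 0.07 in replicate 2, with 10 past 2-fold higher in the first and 2 in the second. Fos, an early response factor, measured 516.8 and 727.9 against 1254.4 and 785.6. With limma 0 of the 29 passed in either fit (5 at an unadjusted p under 0.05 with the block).

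Cell cycle and replication genes had a median of 0.23 over 33 (0.23 and 0.12 within the replicate numbers), NF-kB factors and targets 0.08 over 13 (-0.13 within each), glycolysis genes -0.07 over 15, ribosomal protein genes -0.07 over 26 and respiratory chain genes -0.06 over 64. In these 5 lists limma called 0 members in either fit. At an unadjusted p under 0.05 with the block were 6, 3, 2, 2 and 4. Among the cell cycle genes was Ccnd2, the D cyclin that B cells raise on receptor signals. It measured 56.1 and 94.9 in CBA and 28.2 and 43.9 in the knockout (-0.94 ± 0.36) and did not pass. The D cyclins Ccnd1 (0.96 ± 0.41) and Ccnd3 (0.55 ± 0.24) went the other way and did not pass either. Of the 33 cell cycle genes, 12 had both knockout arrays above both CBA arrays and 4 had both below. Over all genes these shares were 20.7% and 16.2%. Of 21 chemokine, cytokine and TNF receptors 2 rose and 1 fell, and their median was -0.10.

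**Figure D4:**
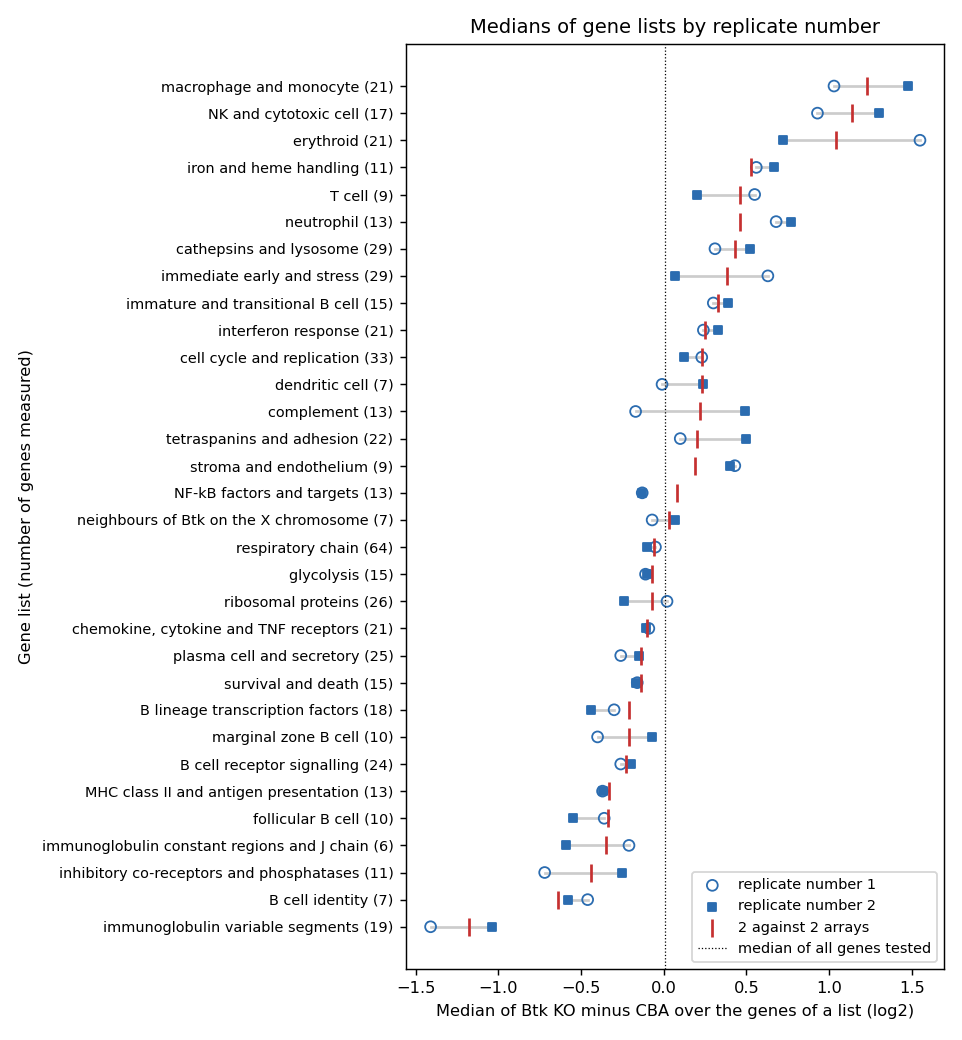
Median log2 difference, Btk KO minus CBA, over the measured genes of each list with 6 or more (number in brackets), for replicate number 1 (open circles), replicate number 2 (squares) and both (red bars); the dotted line is the median of all genes tested. Macrophage and NK lists lie near or above 1 in both replicate numbers, the immunoglobulin variable list lies below -1 in both, and the red cell and immediate early lists lie further right in replicate 1.

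Some large differences were seen in replicate 1 alone. Past 4-fold there were 136 probe sets, of which 54 were past 2-fold the same way in replicate 2, while 59 were under 1.5-fold or opposite in replicate 2, 45 of them lower and 14 higher. Tgfb1, a cytokine that limits immune responses, measured 363.3 and 736.6 in CBA and 21.1 and 664.2 in the knockout. H2-DMb2, of class II peptide loading, measured 583.4 and 1334.0 against 66.1 and 992.5, and Vav2, an exchange factor of B cell receptor signalling, 66.2 and 91.2 against 3.7 and 113.0. In each the low value was that of knockout replicate 1, and none passed in either fit.

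The dimmer probe set of Pik3cd, the kinase delta of the receptor pathway, showed the same pattern (141.9 and 121.2 against 4.8 and 100.2). The brighter Pik3cd probe set differed by -0.22. A Rab7 probe set differed by -3.06 and -0.26 where another differed by -0.09. Cmah, which makes a sialic acid form, and Slfn2, a regulator of lymphocyte quiescence, differed by -3.41 and -2.57 in replicate 1 and by -0.47 and -0.18 in replicate 2. On the higher side were Htr3a, a serotonin receptor channel, the heat shock gene Hspa1b and a dim probe set of Atf3, a stress-induced factor. In replicate 2 alone the pattern was rarer, with 47 probe sets past 4-fold, of which 15 were under 1.5-fold or opposite in replicate 1.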

How the data were processed

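Total RNA of 6 samples was hybridised to Affymetrix MG_U74Av2 arrays, 2 each for CBA, Xid and Btk KO. Per probe set and array, the authors deposited 1 intensity on a linear scale and no detection call. How the probes were summarised is not given in the sources used here. Each array's deposited intensities had a trimmed mean of 100.06, and they were not scaled again. The number of arrays limits the precision.

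A pseudocount of 6 was added to the deposited values before log2, so fold changes of dim probe sets are understated. Non-control probe sets under the 40th percentile of mean log2 value were left out. GEO's platform annotation gives 1 symbol to 10833 of the 12422 probe sets, several to 396 and none to 1193; 10817 symbols were found through the gene number in a RefSeq table of GRCm38.p6. A gene in a list is represented by its brightest tested probe set.

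A limma model (limma 3.58.1 with an intensity trend, R 4.3.3) held a mean for each of the 3 groups over all 6 arrays. Tests were two-sided, with Benjamini-Hochberg adjustment over all 7453 probe sets and a threshold of 0.05. The same model with the replicate number as a block was run beside it. The block takes out of the spread what arrays of 1 replicate number share. Residual degrees of freedom were 3 without the block, 2 with it, and 1 with it and without knockout replicate 1. The pairing comes from the series text, by which replicate 2 of all groups was a later set from new animals, and from the file headers, by which each set had a chip lot of its own. Deviations from the group means correlated at 0.31 (CBA with Xid), 0.374 (CBA with Btk KO) and 0.441 (Xid with Btk KO) between arrays of 1 number, over 7453 probe sets. Lists are described by counts and medians, with no test. The fits were tested on simulated data. Figures were drawn with matplotlib 3.10.9.

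The gene lists and the rule for naming genes were chosen with earlier results of these data known. The rule names Btk, every gene called without the block, and up to 15 higher and 15 lower genes of the blocked fit by p. The genes of the blocked fit were taken only with 1 sign in both replicate numbers and groups that did not overlap. For these genes the lack of overlap thus follows from the rule. It also names up to 5 members of each list by p, and 6 lineage markers. Further named are up to 10 each way with the largest change in replicate 2 among those past 2-fold in both. Up to 10 past 4-fold in replicate 1 alone are named as well. Further list members, chosen after their values were seen, are C1qa, Csf1r, Ccl5, Fos, Mpo, Elane and Klrd1. Probe sets with several symbols or none were not named.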

Additional observations from a re-analysis of the deposited data

Results flagged for a closer look

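The knockout and Xid arrays were compared in the same model, and 5 probe sets described above for the knockout, or in its gene lists, differed there between both lines in at least 1 fit. Btk measured 841.0 and 643.9 in Xid, and knockout minus Xid was -1.72 on the log2 scale (limma adjusted p = 0.16 without the block, 0.014 with it). Camp, the antimicrobial peptide precursor of neutrophils, measured 56.3 and 45.1 in Xid against 271.1 and 324.2 in the knockout, a difference of 2.42 (limma adjusted p = 0.050 without the block, 0.014 with it). S100a8, a calprotectin chain, measured 65.4 and 50 against 267.1 and 629.3, a difference of 2.72 (limma adjusted p = 0.13 without the block, 0.038 with it).

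Ifi202b, an interferon-inducible gene that differs between mouse strains, was near the floor in Xid, at 1.5 and 10.6, and measured 82.5 and 91.7 in the knockout. Its difference from Xid was 3.06 (limma adjusted p = 0.12 without the block, 0.046 with it), and its level in CBA was 35.2 and 27.6. The probe set without a symbol that had the largest change against CBA measured 53.0 and 82.6 in Xid and differed from the knockout by 5.24 (limma adjusted p = 0.017). For Mrc1, Spic, Vcam1, Ephx1 and Mcoln2 the difference from Xid did not pass in either limma fit, with sizes of 1.11, 0.91, 0.86, -0.78 and -0.24.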

How the results depend on the processing

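Against 13 calls in Btk KO against CBA, limma gave 166 with the replicate block, 91 with the block and without knockout replicate 1, 29 with the filter at the 60th percentile, 8 with quantile normalization, 8 with median centring and 8 with no filter. It gave 0 with no intensity trend (656 at an unadjusted p under 0.05) and 0 with only the 4 arrays compared (567). Leaving out 1 array gave 0 to 145, the highest without knockout replicate 2 (469, 391, 573 and 570 at an unadjusted p under 0.05 for the counts of 0, without CBA replicate 1, CBA replicate 2, Xid replicate 1 and Xid replicate 2). A group left with 1 array is assumed there to vary like the other groups. The adjusted p of Mrc1 ran from 0.0053 to 0.39 over its alternatives. Btk stayed lower throughout, and of the fits with all 6 arrays it passed at -1.86 with the block and -1.86 with the stricter filter. Without knockout replicate 1 it was at -2.18 without the block and -2.03 with it. Leaving out 1 array gave -2.18 to -1.53 without the block. Past 2-fold in both replicate numbers were 133 probe sets with a pseudocount of 20, 122 with the stricter filter, 46 at 3-fold and 572 at 1.5-fold, against 205. Calls against Xid, 3 in all, became 14 with the block and 5 with a pseudocount of 20, and 0 to 29 with 1 array left out.

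Some named probe sets that had not passed turned in direction. With 1 array left out, the ranges were -4.27 to 0.36 for Tgfb1, -3.40 to 0.08 for Rab7, -3.62 to 0.17 for H2-DMb2, -3.11 to 0.51 for Vav2 and -1.03 to 0.04 for Fscn1, each turned in sign without knockout replicate 1. They were -0.77 to 1.95 for the dim Atf3 probe set, -0.65 to 1.34 for Cd3e, -0.43 to 0.10 for Tec, -0.53 to 0.45 for Gp9, -0.51 to 0.02 for Hk1, -0.21 to 0.64 for Hnrnph2 and -0.05 to 0.11 for Cstf2. With the block and without knockout replicate 1, Vav2 was at 0.02, Atf3 at -0.97, Hspa1b at -0.54, Gp9 at 0.08 and Cstf2 at -0.01. With median centring Cstf2 was at -0.08. The cause was not tested.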
